A study of Mus musculus with 12 samples.

Results

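Small nucleolar RNAs (snoRNAs) are short, stable RNAs of the nucleolus, and the genes described here are those whose GENCODE symbol is Snora or Snord followed by a number. Of 141 such genes in the count table, 106 had at least 10 reads summed over the 12 libraries and were kept, out of 51467 genes in all. They comprised 32 Snora genes and 74 Snord genes. A further 32 of the 141 genes had 0 reads and 3 had between 1 and 9 reads. The gene just inside the minimum was Snord99 with 16 reads, and the gene just outside it was Snord123 with 8.

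The libraries came from mouse embryonic stem cells (ESCs) held in the naive state with LIF and the inhibitors PD0325901 and CHIR99021, and from epiblast-like cells (EpiLCs) taken 56 h after those factors were withdrawn from the same reporter line, which carries fluorescent proteins at the miR-290 and miR-302 loci. Every culture received 500 uM 4-thiouridine (4sU) for 30 min before lysis, so the total RNA also came from labelled cells. Each RNA was then divided into a total RNA library, depleted of ribosomal RNA, and a 4sU library made from the biotinylated, streptavidin-bound RNA of that pulse. There were 3 libraries for each of the 4 combinations. The study describes such libraries as biological replicates, and the labels do not say how the cultures were separated. Reads assigned to genes numbered 3097693 to 5385644 in the 4sU libraries and 9300845 to 21975684 in the total libraries. All 6 naive markers fell in EpiLC total RNA and all 4 formative markers rose. Of 3 pluripotency genes, Sox2 also fell, at -3.55 on the log2 scale, while Pou5f1 differed by -0.77 and Sall4 by 0.05. Of 6 endoderm and mesoderm markers, 4 were tested, and 3 of these were higher in EpiLC total RNA and 1 lower. The summed level of 6 fibroblast markers was 3.47 to 4.23 CPM (counts per 1000000 gene reads of the library) in ESC total RNA and 13.98 to 18.2 CPM in EpiLC total RNA, with Postn at or near 0, and its part in the results below was not tested.

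Most mammalian snoRNAs lie in introns of other genes, are released from the excised intron and are trimmed to a stable core by exonucleases, while a few have promoters of their own. Box C/D snoRNAs, which carry Snord symbols, guide 2′-O-methylation of ribosomal RNA with the methyltransferase fibrillarin. Box H/ACA snoRNAs, which carry Snora symbols, guide pseudouridylation with dyskerin. A few members of both families instead take part in the cleavage of the ribosomal RNA precursor.

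The annotation placed 90 of the 106 genes within an intron of a host gene, at a median distance of 71 bases from the nearest host exon, and 32 genes lay in 23 ribosomal protein genes. Another 11 overlapped an exon of a different gene on their own strand and 5 lay neither in an intron nor on such an exon. A host was assigned to 99 of the 106 and none to 7. Because a single shared base sufficed for counting, a read from unspliced host RNA that touched a snoRNA was counted for it, and such reads and reads from the mature snoRNA cannot be told apart in the table. Reads on exons of 2 genes were not counted for either.

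The box elements of the families were present in the annotated sequences. The letters TGATG, the core of box C, occurred in the first 20 bases of 63 of 74 Snord genes and of 0 of 32 Snora genes, against 2.11% of 141515 GENCODE transcripts of at least 60 bases. The letters CTGA, box D, occurred in the last 20 bases of 72 Snord genes and 4 Snora genes, against 9.24% of all transcripts, and ACA occurred in the last 6 bases of 30 Snora genes and 5 Snord genes, against 7.90%. Only the transcribed strand was searched, and the motifs do not overlap one another. The Snora genes were 127 to 205 bases long and the Snord genes 64 to 238, with medians of 133.5 and 80.5.

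The sequences on which the comparisons turn are given first, 5′ to 3′ from the GENCODE M21 transcripts, with boxes C and D or the ACA in capitals where the search found them. The first pair are near-identical H/ACA RNAs of the Snhg3 locus, Snora73b at chr4:132352322-132352526 and Snora73a at chr4:132352775-132352979, both on the minus strand of mm10. They matched at 198 of 205 aligned positions (96.6%).
Snora73b: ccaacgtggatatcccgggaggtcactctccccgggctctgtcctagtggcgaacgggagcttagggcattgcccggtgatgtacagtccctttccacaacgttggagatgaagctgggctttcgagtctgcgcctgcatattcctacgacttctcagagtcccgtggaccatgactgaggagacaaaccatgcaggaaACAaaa
Snora73a: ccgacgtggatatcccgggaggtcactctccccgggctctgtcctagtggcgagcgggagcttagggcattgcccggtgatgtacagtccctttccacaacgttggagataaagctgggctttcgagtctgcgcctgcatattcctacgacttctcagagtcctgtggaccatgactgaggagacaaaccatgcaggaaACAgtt

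Members of a single host allow snoRNAs cut from the same transcript to be compared. The 3 genes of Gas5 lie on the plus strand, Snord78 at chr1:161036984-161037049, Snord80 at chr1:161037601-161037681 and Snord47 at chr1:161038082-161038158.
Snord78: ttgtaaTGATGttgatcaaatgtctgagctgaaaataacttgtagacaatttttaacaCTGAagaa
Snord80: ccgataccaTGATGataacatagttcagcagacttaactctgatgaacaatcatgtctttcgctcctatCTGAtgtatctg
Snord47: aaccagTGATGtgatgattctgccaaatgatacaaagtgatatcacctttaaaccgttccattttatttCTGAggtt

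A second trio of equal length lies on the plus strand within 2410006H16Rik, Snord49b at chr11:62603079-62603150, Snord49a at chr11:62603450-62603521 and Snord65 at chr11:62604515-62604586. Snord49a and Snord49b matched at 54 of 78 aligned positions (69.2%).
Snord49b: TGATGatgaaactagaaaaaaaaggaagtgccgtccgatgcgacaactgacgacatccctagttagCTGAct
Snord49a: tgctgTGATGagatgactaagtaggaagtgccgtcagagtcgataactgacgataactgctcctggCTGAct
Snord65: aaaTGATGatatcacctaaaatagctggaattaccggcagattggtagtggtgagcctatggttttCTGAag

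The remaining sequences are those of 2 genes far lower in 4sU than in total RNA, the C/D gene Snord15b at chr7:99479563-99479707 and the H/ACA gene Snora78 at chr17:24719676-24719803, both on the minus strand, and of the genes that differed between the cell types, Snord64 at chr7:59978808-59978874 on the minus strand and Snora20 at chr17:12922790-12922917 on the plus strand.
Snord15b: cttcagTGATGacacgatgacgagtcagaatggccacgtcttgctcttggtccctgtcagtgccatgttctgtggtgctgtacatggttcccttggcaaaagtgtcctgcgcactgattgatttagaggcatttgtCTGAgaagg
Snora78: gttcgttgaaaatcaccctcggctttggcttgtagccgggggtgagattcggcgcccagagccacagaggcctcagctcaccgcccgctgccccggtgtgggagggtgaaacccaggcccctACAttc
Snord64: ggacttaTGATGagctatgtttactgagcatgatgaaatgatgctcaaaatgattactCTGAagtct
Snora20: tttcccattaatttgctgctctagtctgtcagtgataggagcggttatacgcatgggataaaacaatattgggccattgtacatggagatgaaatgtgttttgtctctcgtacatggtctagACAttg

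The classes differed in how their reads were spread over members. The 32 Snora genes together took 1881 ± 78.0 CPM of ESC total RNA and 1830 ± 152 CPM of EpiLC total RNA (SD, n = 3), but 1068 ± 143 and 1014 ± 62.1 CPM of the 4sU RNA. Snora73b alone supplied 74.5% ± 5.29 of the Snora reads in ESC total RNA and 67.9% ± 4.62 in EpiLC total RNA, against 17.4% ± 1.13 and 16.6% ± 0.533 in the 4sU libraries. With Snora73b left out the order of the assays reversed, to 482 ± 113 CPM in ESC total RNA against 883 ± 130 CPM in ESC 4sU RNA, and to 593 ± 131 against 846 ± 57.2 CPM in EpiLCs.

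No single gene led the Snord class. The 74 Snord genes took 2092 ± 342 CPM of ESC 4sU RNA and 1876 ± 80.2 CPM of EpiLC 4sU RNA. In total RNA they took 1233, 1051 and 2970 CPM of the 3 ESC libraries and 2874, 2019 and 1222 CPM of the 3 EpiLC libraries, so the total libraries of a group differed by more than the assays did. Snord22, from Snhg1, held 14.9% ± 3.75 of the Snord reads of ESC total RNA. Divided by gene length as RPKM (CPM per kilobase), the order of members differed between the assays. In the mean of the ESC total libraries Snora73b was highest at 6826 RPKM, followed by Snord22 at 1871, Snord13 at 1810.5 and Snord15b at 1336. In the mean of the ESC 4sU libraries Snord78 was highest at 3051 RPKM, followed by Snord2 at 2167, Snord47 at 1368 and Snord22 at 1323. The first 3 genes of each assay were also the first 3 in EpiLCs.

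**Figure D1:**
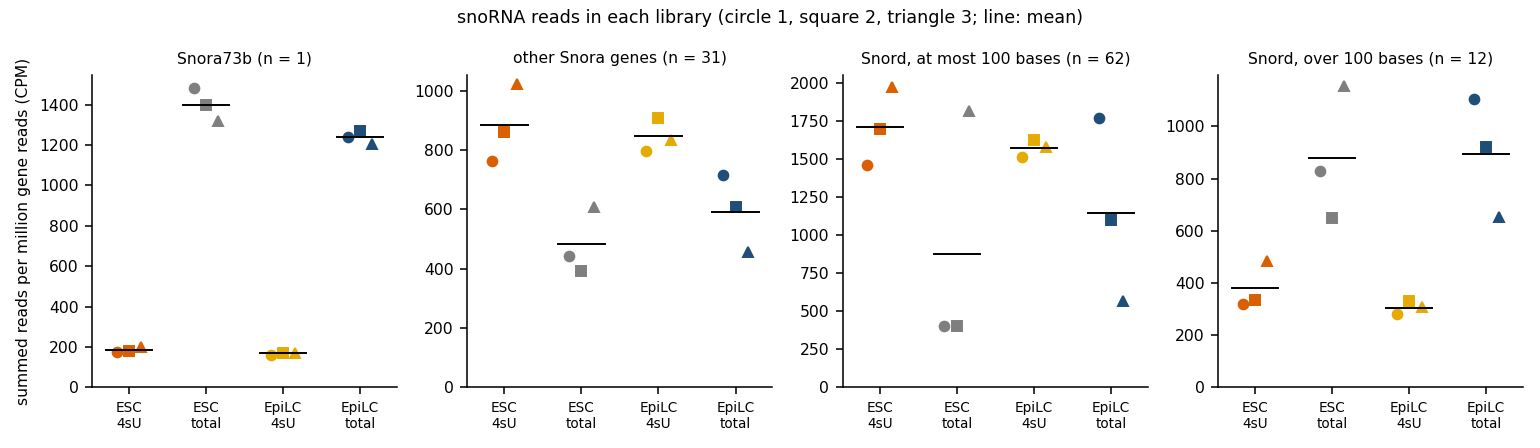
Summed CPM of Snora73b, of the other 31 Snora genes, of the 62 Snord genes of at most 100 bases and of the 12 longer Snord genes, with one point per library and a line at the mean of 3. Snora73b was tight within each group and high in total RNA, whereas the short Snord genes stood at 401 to 1816 CPM across the ESC total libraries and at 1462 to 1975 CPM across the ESC 4sU libraries.

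The first comparison set the level of each snoRNA in 4sU RNA against its level in total RNA of the same cell type. Both levels are relative to their library, so the difference does not give the amount newly made. Most members were higher in the 4sU libraries, and a minority of abundant ones were far lower. Of the 93 members that reached 3 CPM in at least 3 libraries, 53 were higher and 8 lower in ESCs by limma-voom (adjusted p under 0.05 and a change over 1 on the log2 scale), where 26.8% of the 14731 genes tested were higher and 23.7% lower. In EpiLCs 48 were higher and 12 lower, against 23.3% and 24.2% of all genes. The lower count was 5 in ESCs without ESC 4sU library 2, and 7 in EpiLCs without EpiLC 4sU library 1 or 3. With equally numbered 4sU and total libraries paired in a replicate block, a sharing of cultures that the labels do not state, 11 were lower in ESCs and 19 in EpiLCs. The 4sU libraries alone went through biotin capture and an additional column clean-up, so labelling and handling cannot be told apart in this contrast.

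With every gene of at least 10 reads tested, so that all 106 members entered, 59 were higher and 9 lower in ESCs, where 29.3% and 21.5% of 22624 genes were, and 55 were higher and 15 lower in EpiLCs, where 25.1% and 19.2% were. The calls coincided in the cell types for 54 members that were higher in both and 9 that were lower in both. The 9 were Snora57, Snora73b, Snora78, Snord8, Snord13, Snord15a, Snord15b, Snord17 and Snord49b, and 8 of them were longer than 100 bases, while 16 of the 54 were. With the 3 CPM filter Snord49b was not called in ESCs, and the other 8 were lower in both cell types.

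By class, 14 of 28 Snora genes tested were higher and 3 lower in ESCs, with a median log2 difference of 1.01, and 39 of 65 Snord genes were higher and 5 lower, with a median of 1.98. The median over all genes tested was -0.03. In EpiLCs the medians were 0.73 for Snora, 1.57 for Snord and -0.15 for all genes. The 3 CPM filter could admit members through their 4sU libraries alone, the assay in which most were higher. With every gene of at least 10 reads tested, the ESC medians were 1.22 for Snora, 1.76 for Snord and 0.16 for all genes. The EpiLC medians were then 0.75, 1.52 and 0.13. Computed without a model, as the median over members of the log2 ratio of CPM + 0.5 within equally numbered libraries, Snord genes gave 1.61 ± 0.30 for ESCs and 1.35 ± 0.32 for EpiLCs, and Snora genes gave 1.13 ± 0.23 and 0.70 ± 0.14 (SD over 3 pairs). By the same measure all 22624 genes with at least 10 reads gave 0.25 ± 0.05 and 0.08 ± 0.02. The Snord median exceeded the Snora median in each of the 6 library pairs, and no test of this difference was made.

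**Figure D2:**
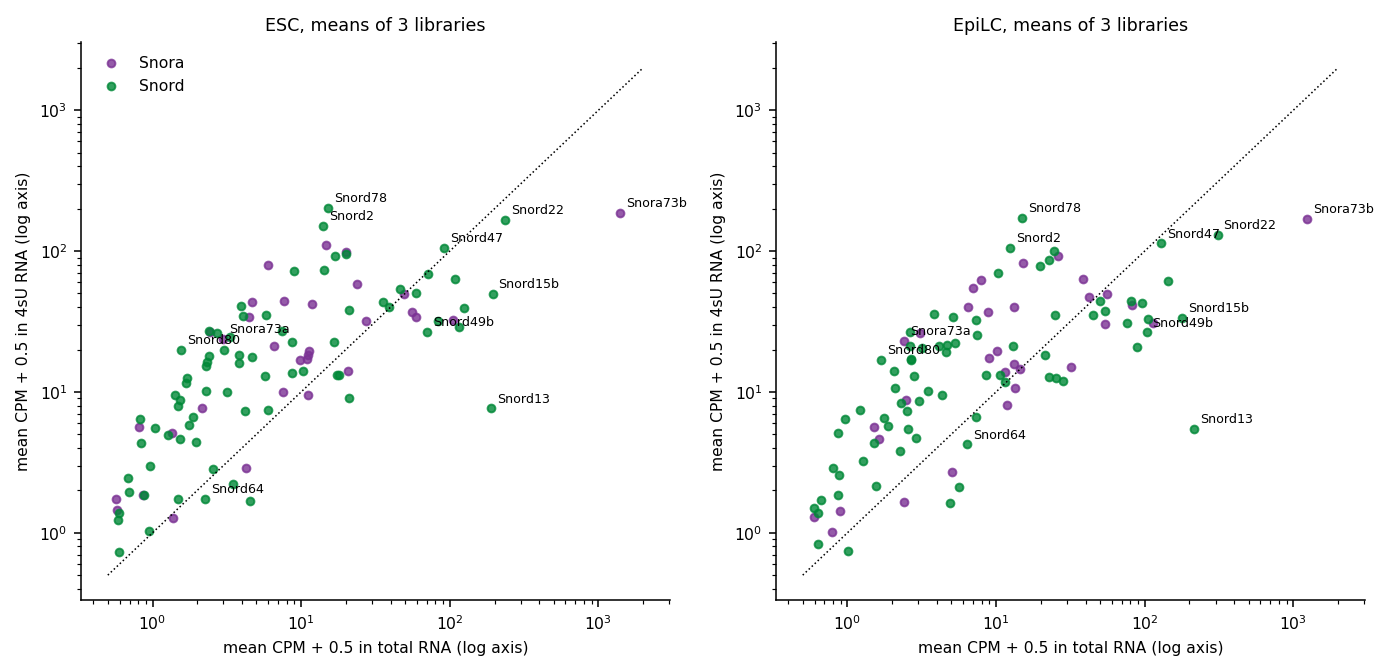
Mean CPM + 0.5 of each of the 106 members in 4sU RNA against total RNA, on log axes, in ESCs and EpiLCs, with equality dotted. Most members lie above the line, and Snora73b and Snord13 lie farthest to its right.

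Snord13 (U13), a box C/D RNA that pairs with the precursor of 18S ribosomal RNA and lies outside any host, stood at 4.42, 2.23 and 14.8 CPM in ESC 4sU RNA and at 52.8, 51.0 and 461 CPM in ESC total RNA. In EpiLCs it stood at 1.75, 5.76 and 7.42 CPM in 4sU RNA and at 343, 216 and 87.2 CPM in total RNA. The assays did not overlap in either cell type, and the total libraries spread widely.

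The fitted Snord13 differences were -4.63 ± 1.62 in ESCs and -5.60 ± 1.88 in EpiLCs on the log2 scale (SE), with limma-voom adjusted p of 0.017 and 0.014. The ESC call was lost when any one of the 3 ESC 4sU libraries was left out, and the EpiLC call when EpiLC 4sU library 2 was. The fits that left out a single library gave -5.19 to -3.67 in ESCs and -6.15 to -4.88 in EpiLCs. Their limma-voom adjusted p reached 0.080 and 0.052, so the calls, though not the direction, depended on single libraries.

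Snora73b (U17), an H/ACA RNA also required for processing of 18S ribosomal RNA, stood at 174, 182 and 199 CPM in ESC 4sU RNA against 1483, 1398 and 1317 CPM in ESC total RNA. The EpiLC values were 162, 172 and 169 CPM against 1239, 1268 and 1206 CPM. Its differences of -3.15 ± 0.08 and -3.05 ± 0.08 (SE; limma-voom adjusted p = 3.3e-13 and 1.1e-12) were the tightest among the members named here.

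The pair of Snord15 genes in introns of Rps3 behaved alike in ESCs. Snord15b stood at 40.7, 34.2 and 72.2 CPM in ESC 4sU RNA against 232, 157 and 192 CPM in total RNA, a difference of -2.32 ± 0.22, and Snord15a differed by -2.38 ± 0.23 (SE). In EpiLCs the values were -2.63 ± 0.26 and -2.24 ± 0.26. Rps3 itself differed by -2.25 ± 0.08 and -2.21 ± 0.08, and all 6 of these differences passed the test.

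Snora78, within the short host Snhg9, stood at 22.5, 27.1 and 45.5 CPM in ESC 4sU RNA and at 98.1, 94.7 and 122 CPM in ESC total RNA, which do not overlap, and differed by -2.04 ± 0.20 in ESCs and -2.04 ± 0.21 in EpiLCs. Snhg9 went the other way, by 1.78 ± 0.43 and 1.29 ± 0.41. Snora57 was close to the threshold, at -1.05 ± 0.12 and -1.01 ± 0.13. Its ESC call was lost without ESC 4sU library 2 or ESC total library 1, and its EpiLC call held in 4 of the 12 fits that left out a single library, which gave -1.09 to -0.79. Both calls were also lost under median-of-ratios scaling, library totals alone, TMM scaling within each assay and DESeq2.

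At the other end, named by the size of the mean difference, stood Snord92 of Wdr43, Snord80 of Gas5 and Snord19 of Gnl3 among Snord genes, and Snora75 of Ncl, Snora81 of Eif4a2 and Snora20 of Tcp1 among Snora genes. Snord80 ranked here on reads outside its overlap with a second annotated copy, as described below for Gas5. Snord19 stood at 20.8, 30.3 and 28.4 CPM in ESC 4sU RNA against 1.92, 1.55 and 2.18 CPM in ESC total RNA, a difference of 3.61 ± 0.21, and it differed by 3.45 ± 0.24 in EpiLCs (SE). Snora75 stood at 23.6, 24.3 and 30.7 CPM against 1.61, 1.87 and 2.36 CPM, a difference of 3.54 ± 0.19 in ESCs and 3.13 ± 0.21 in EpiLCs. In neither gene did any 4sU library come near a total library.

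Several of these genes had few reads in total RNA. Snord92 had 0, 9 and 6 reads in the ESC total libraries and 21, 31 and 25 in the ESC 4sU libraries, and its difference was 4.83 ± 0.74 in ESCs and 2.97 ± 0.60 in EpiLCs. Snora81, which overlaps an exon of another gene by 103 bases and shares 38.8% of its 50-base windows with other transcripts, differed by 3.59 ± 0.14 and 2.90 ± 0.16.

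Among the abundant members that were higher in 4sU RNA, Snord2 of Eif4a2 stood at 139, 149 and 160 CPM in ESC 4sU RNA and at 14.6, 13.4 and 12.97 CPM in ESC total RNA, a difference of 3.21 ± 0.11. The Eif4a2 difference was 1.61 ± 0.07. Snora65 of Rpl12 differed by 2.67 ± 0.14 in ESCs and 2.30 ± 0.16 in EpiLCs, and Snora33 of Rps12 by 2.10 ± 0.16 and 1.71 ± 0.17. The calls of these 3 members held without any single library.

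The other abundant members named were called in at most one cell type. Snord22, of which 59 bases overlap an exon of Snhg1, differed by -0.71 ± 0.22 in ESCs and fell below total RNA by the test in EpiLCs, at -1.40 ± 0.22. Snord21 of Rpl5 was at 0.37 and -1.16, Snord14d of Hspa8 at -0.47 and -1.19 and Snora52 of Rplp2 at -0.15 and -0.28, none of which passed. Without ESC total library 3, Snord21 was called higher in ESCs at 1.13 (limma-voom adjusted p = 0.0073), and Snord21 and Snord14d were called lower in EpiLCs at -1.17 and -1.20. Without EpiLC total library 3 both were also called lower in EpiLCs, at -1.66 and -1.71. Snora24 of Snhg8 was called higher in ESCs at 1.11 ± 0.23, a call lost without ESC total library 2, and was at 0.64 in EpiLCs. Its ESC call was also lost with no expression filter and with genes of at least 10 reads tested by limma-voom, at 0.91, or by edgeR.

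Across the 65 Snord genes tested, the mean of the ESC and EpiLC differences fell with gene length, with Pearson's r = -0.47 and Spearman's rho = -0.40. Across the 28 Snora genes the values were -0.17 and -0.13. The number of T in the gene, the positions at which 4sU can enter, had r = -0.32 among Snord genes and 0.24 among Snora genes. The ESC and EpiLC differences of the 93 members had r = 0.97 and rho = 0.96. These are descriptions across genes, which share libraries and gene models and are not independent replicates.

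**Figure D3:**
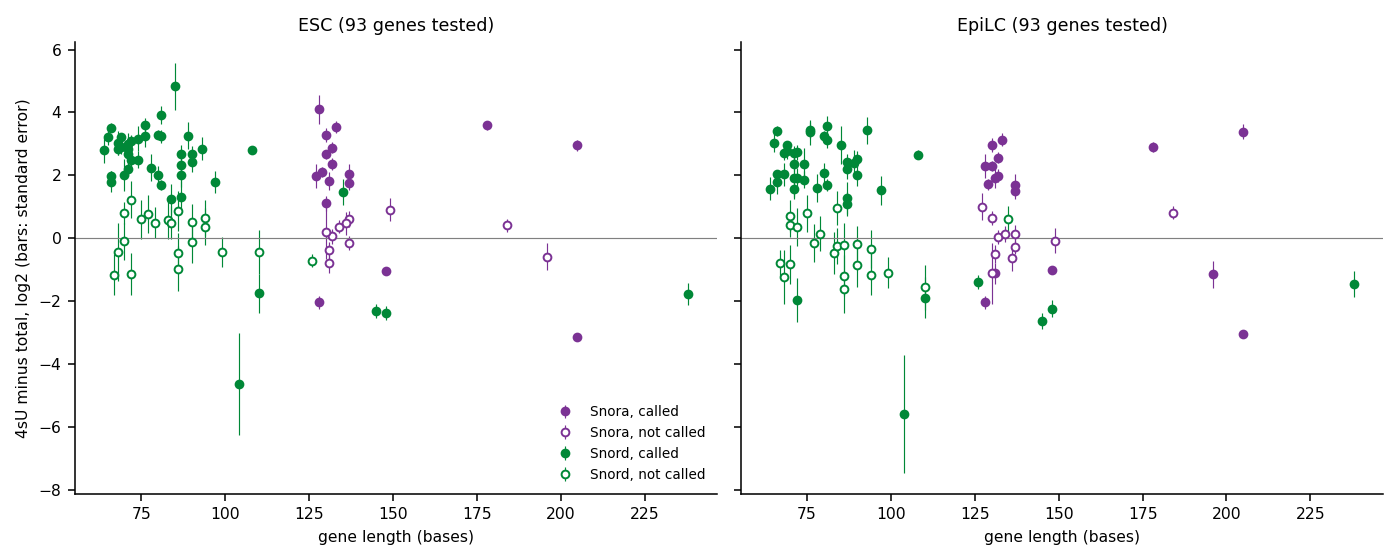
The 4sU minus total difference of the 93 members tested (log2, bars: standard error) against gene length in bases, for ESCs and EpiLCs, with filled points for genes called by limma-voom. Members under 100 bases lie mostly above 0, and members of a single length reach from -3.15 to 2.95 at 205 bases in ESCs.

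SnoRNAs of one host differed widely in some hosts and little in others. The near-identical Snora73b and Snora73a, of the Snhg3 locus but not assigned to a single host, lay farther apart than the members of any one host. Snora73a stood at 20.9955, 25.3 and 23.8 CPM in ESC 4sU RNA and 2.95, 2.64 and 1.90 CPM in ESC total RNA. Its differences were 2.95 ± 0.18 in ESCs and 3.39 ± 0.23 in EpiLCs, close to those of Snhg3 itself at 3.00 ± 0.12 and 3.09 ± 0.13. Within equally numbered libraries, the log2 ratio of Snora73a exceeded that of Snora73b by 5.72 to 6.34. In the annotation 159 of the 205 bases of Snora73a overlapped an exon of Snhg3, where reads were not counted, and 7.05% of the 50-base windows of Snora73b occur in another transcript.

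Of the Gas5 trio, Snord78 stood at 183, 212 and 210 CPM in ESC 4sU RNA and at 16.9, 16.2 and 11.1 CPM in ESC total RNA, with EpiLC values of 177, 169 and 166 CPM and 16.5, 13.6 and 13.5 CPM. Snord47 had steady 4sU levels of 100, 108 and 108 CPM in ESCs and 107, 116 and 116 CPM in EpiLCs. Its total levels were 28.7, 28.4 and 216 CPM in ESCs and 206, 128 and 53.4 CPM in EpiLCs, so its assays overlapped where those of Snord78 did not.

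The Snord78 differences were 3.51 ± 0.13 and 3.40 ± 0.15 (SE), and those of Snord47 were 0.77 ± 0.62 and -0.15 ± 0.62 and did not pass the test. Without ESC total library 3, Snord47 was called higher in ESCs at 1.63 ± 0.37 (limma-voom adjusted p = 0.00069). Snord80, of which 77 of 81 bases overlap a second annotated copy, differed by 3.92 ± 0.28 and 3.57 ± 0.32. By this annotation, reads touching those 77 bases were counted for neither copy. Reads counted for Snord80 could touch only its remaining bases and otherwise lay in flanking sequence. Its differences therefore do not describe reads from within the mature snoRNA. The Gas5 gene, counted on its exons, differed by 2.37 ± 0.07 and 2.46 ± 0.07. The ratio of Snord78 exceeded that of Snord47 in all 6 library pairs, by 1.61 to 5.18 on the log2 scale.

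The members of the 2410006H16Rik trio, of equal length, also lay far apart. In ESCs, Snord65 differed by 3.08 ± 0.21, Snord49a by 2.47 ± 0.30 and Snord49b by -1.14 ± 0.67 (limma-voom adjusted p = 0.13). In EpiLCs the differences were 2.73 ± 0.23, 1.91 ± 0.30 and -1.95 ± 0.70 (adjusted p = 0.02), and the Snord49b call was lost without any one of the 3 EpiLC 4sU libraries or EpiLC total library 1. Snord49b stood at 23.0, 24.9 and 31.0 CPM in ESC 4sU RNA and at 28.3, 31.1 and 151 CPM in ESC total RNA, whereas Snord49a stood at 57.0, 78.7 and 82.3 CPM and at 8.44, 8.42 and 24.2 CPM. The ratio of Snord49a exceeded that of Snord49b in all 6 pairs, by 2.98 to 4.10.

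The 18 hosts assigned at least 2 members did not include Snhg3. Among them the range of the mean ESC log2 ratio within a host ran from 4.05 for 2410006H16Rik to under 0.01 for Nop58, the gene of a C/D core protein. The range was under 0.5 in 6 of the 18, and the 3 members of Rpl23a ranged over 0.15. In Rpl3 the ratio of Snord43 exceeded that of Snord83b by 1.48, 1.53 and 3.73 in ESC pairs 1, 2 and 3, and in Ncl that of Snora75 exceeded that of Snord82 by 1.03, 0.81 and 2.92. Pair 3, which holds ESC total library 3, gave the largest value in both.

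**Figure D4:**
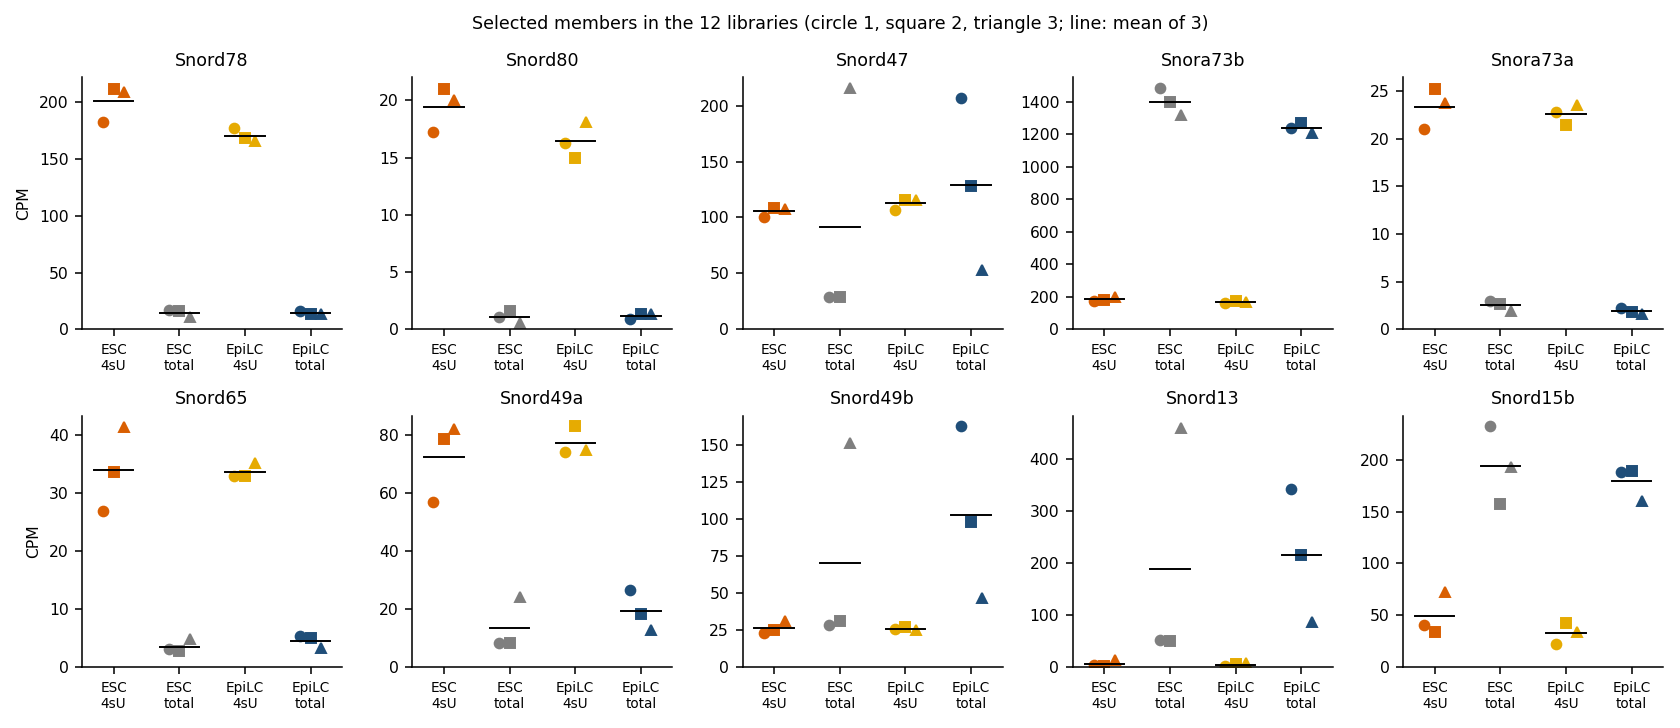
CPM of 10 members in the 12 libraries, with one symbol per library number and a line at the mean of 3. Snord78, Snord80, Snora73a, Snord65 and Snord49a are higher in every 4sU library than in any total library, and Snord47, Snord49b and Snord13 differ several-fold between total libraries of a group.

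Members of many hosts followed the same pattern across the total libraries. Among the 86 members with at least 200 reads, 40 (46.5%) were more than 2-fold higher in ESC total library 3 than in the mean of libraries 1 and 2, against 5.36% of the 13942 genes of that depth. In EpiLCs, 36 (41.9%) were more than 2-fold higher in total library 1 than in total library 3, against 1.84%. Both held for 33 members and for 115 of the 13942 genes. In the 4sU libraries of the same numbers, 11 and 2 of the 86 members did so, against 573 and 347 of the 13942 genes.

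Snord genes made up 34 of the 40 and Snora genes 6, of 60 and 26 with 200 reads. Of the 10 members longer than 140 bases, 2 were among the 40. Across the 86 members, the ESC and EpiLC library ratios had r = 0.90 and rho = 0.91, as a description over genes of the same libraries. The share was 22.5% of the 40 members higher in 4sU RNA in both cell types and 75.7% of the 37 that were neither higher nor lower in both. The groups came from calls that used these same total libraries, so the shares are not independent of the grouping.

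Other small RNAs moved with these libraries. Rny1, a Y RNA, stood at 139, 116 and 587 CPM in ESC total RNA and at 521, 408 and 232 CPM in EpiLC total RNA, and Rny3 moved likewise. ESC 4sU library 3 was also high, with Rny1 at 19.7, 14.5 and 150 CPM and Rny3 at 10.6, 9.10 and 61.4 CPM in ESC 4sU RNA. In EpiLC 4sU RNA Rny1 stood at 9.76, 22.1 and 28.1 CPM and Rny3 at 10.3, 21.9 and 30.0 CPM. Rn7sk, a longer RNA, stood at 14525, 14715 and 11693 CPM in ESC total RNA and at 11891, 11534 and 11392 CPM in EpiLC total RNA. The part of this difference between libraries in the comparisons with total RNA was not tested beyond leaving out each library.

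**Figure D5:**
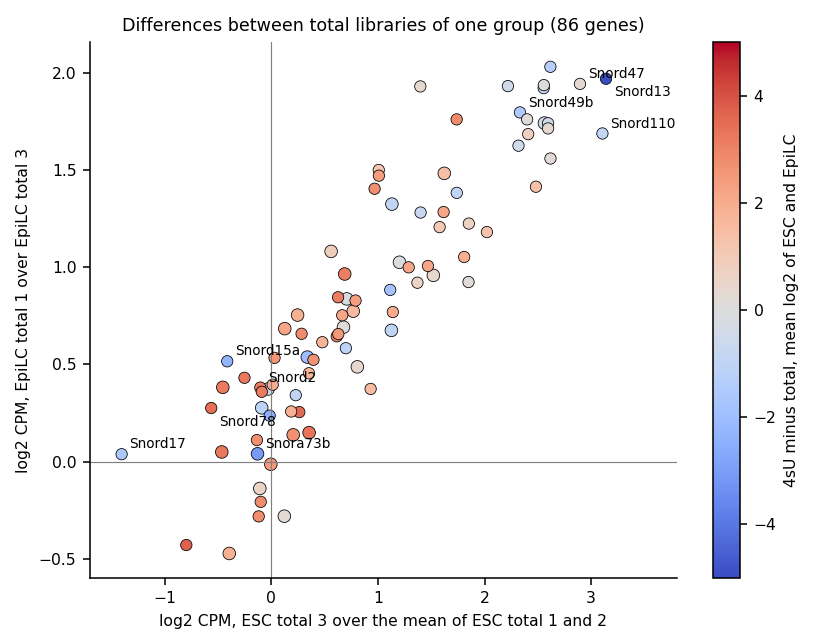
For the 86 members with at least 200 reads, the log2 ratio of ESC total library 3 to the mean of libraries 1 and 2 (x axis) and of EpiLC total library 1 to library 3 (y axis), coloured by the mean 4sU minus total difference. Snord13, Snord47 and Snord110 lie at the upper right, and Snora73b, Snord78 and Snord2 lie near 0 on the x axis or below it.

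The next comparison asked which snoRNAs differed between EpiLCs and ESCs. In bulk RNA, fewer cells of a type and less RNA per cell cannot be told apart. In total RNA 5 members were higher in EpiLCs and 0 lower by limma-voom, where 16.3% of the 14731 genes were higher and 11.2% lower, and 23 members had an unadjusted p under 0.05 in either direction. The edgeR and DESeq2 tests each called 3 higher and 0 lower. The count of higher members was 32 without ESC total library 3, when 1 member was also lower, 21 without EpiLC total library 3, and 3 without ESC total library 1 or 2 or EpiLC total library 1 or 2. Among all genes, 2553 of 14649 were higher and 1615 lower without ESC total library 3. Without EpiLC total library 3, 2314 of 14630 were higher.

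Snord64, a C/D RNA of the imprinted Snrpn region with no assigned ribosomal RNA target, was higher in EpiLCs in both assays. It stood at 1.35, 1.91 and 2.00 CPM in ESC total RNA and at 6.88, 5.496 and 5.33 CPM in EpiLC total RNA, a difference of 1.68 ± 0.33 (SE; limma-voom adjusted p = 0.00044) that held without any single library. The corresponding 4sU values were 2.21, 1.49 and 0 CPM in ESCs, which are 10, 8 and 0 reads, and 3.00, 5.29 and 2.91 CPM in EpiLCs. The groups did not overlap in either assay. No ESC library reached 3 CPM, so Snord64 entered the test through its EpiLC libraries alone. Its calls in both assays also held with genes of at least 10 reads tested and with no expression filter.

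The 4sU difference of Snord64 was 2.05 ± 0.69 (adjusted p = 0.023), with adjusted p of 0.010 to 0.082 when one library was left out, and the call was lost without ESC 4sU library 3 or EpiLC 4sU library 2. Gm38393, the annotated gene that holds it, rose by 2.22 ± 0.16 in total RNA and 1.59 ± 0.22 in 4sU RNA (adjusted p = 2.9e-08 and 3.6e-05).

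Snora20, within the chaperonin gene Tcp1, had 2, 6 and 6 reads in ESC total RNA and 15, 7 and 8 in EpiLC total RNA, or 0.104, 0.273 and 0.544 CPM against 1.61, 0.641 and 0.761 CPM. Its difference of 1.78 ± 0.50 (limma-voom adjusted p = 0.0066) rested on these few reads. Its 4sU difference was -0.03 ± 0.32, and Tcp1 differed by 0.08 ± 0.07 in total RNA.

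The other 3 calls lay near the threshold. Snord37 of Eef2 rose by 1.34 ± 0.42 (limma-voom adjusted p = 0.011), and lost the call without ESC total library 2. Snord82 of Ncl, at 1.22 ± 0.48, kept its call in 3 of 12 fits without a single library, which gave 0.76 to 1.83. Snord89 of Gm15832, at 1.14 ± 0.43, lost it without ESC total library 1 or 2, and fell under the expression filter without ESC total library 3 or EpiLC total library 1 or 2. The 3 genes were at -0.08 to 0.11 in 4sU RNA, none of which passed the test.

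In 4sU RNA, Snord64 was the 1 member called higher in EpiLCs and 0 were lower, where 11.9% of all genes were higher and 13.5% lower, and 10 members had an unadjusted p under 0.05. By edgeR and by DESeq2 the counts were also 1 and 0. The median difference of the 93 members was -0.03, against -0.09 for all genes. In total RNA the medians were 0.36 and 0.02.

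Whether the change between cell types differed between the assays was tested as an interaction, total minus 4sU. No member passed (0 higher and 0 lower by limma-voom, edgeR and DESeq2, 4 with an unadjusted p under 0.05), where 1.24% of all genes were higher and 0.305% lower. Without ESC total library 3, 10 members were called higher, where 572 of 14649 genes were. With the replicate block 1 member was, Snord37, where 438 of 14731 genes were. The largest estimates were 1.86 ± 0.96 for Snord92 and 1.80 ± 0.60 for Snora20.

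Hosts were compared side by side with their members. For 86 members with a tested host, the median 4sU minus total difference was 1.90 in ESCs and 1.54 in EpiLCs, and for the 63 hosts it was 0.64 and 0.78. The member exceeded its host in 55 and 47 of the 86 cases. Across these pairs rho was 0.19 in ESCs and 0.26 in EpiLCs, a description in which members of one host share its value. Of the 63 hosts, 28 (44.4%) were higher and 15 lower in 4sU RNA in ESCs, where 26.8% of all genes were higher and 23.7% lower. In EpiLCs 28 were higher and 14 lower, against 23.3% and 24.2% of all genes. Between the cell types, 3 of the 63 hosts were higher and 1 lower in EpiLC total RNA, against 16.3% and 11.2% of all genes.

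The genes of proteins that bind, assemble and trim snoRNAs were read from 4 lists. Of these 29 genes, 12 had a limma-voom adjusted p under 0.05 between the cell types in total RNA and 11 in 4sU RNA. By that adjusted p alone, 4624 of the 14731 genes tested were higher and 4729 lower in total RNA. In 4sU RNA 3485 were higher and 4246 lower. Of the 29, only Naf1, an H/ACA assembly factor, also changed by more than 1 on the log2 scale. By both thresholds 16.3% of all genes were higher and 11.2% lower in total RNA. It rose by 1.28 in total RNA and 1.17 in 4sU RNA, from 23.8 to 60.4 CPM and from 65.3 to 149 CPM in the group means. Gar1, an H/ACA core protein gene, differed by 0.86 in total RNA (limma-voom adjusted p = 2.6e-06), Dkc1 (dyskerin) by -0.71 (2.4e-05), the exonuclease gene Xrn2 by -0.75 (1.9e-06) and Zcchc8 by -0.73 (9.8e-07), all under that fold. The C/D core genes Nop56 and Nop58 were at 0.00 and -0.02. In 4sU against total RNA, 3 of the 29 were higher and 8 lower in ESCs, where 26.8% of all genes were higher and 23.7% lower. In EpiLCs 3 were higher and 5 lower, against 23.3% and 24.2% of all genes.

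Other structured non-coding RNAs lay on the opposite side from most snoRNAs. Of 7 listed genes, among them Rmrp, Rpph1 and Terc, 6 were lower in 4sU RNA in ESCs and 7 in EpiLCs, with medians of -2.96 and -3.20. Of the 5 Scarna genes tested, guide RNAs of Cajal bodies, 3 and 4 were lower and 0 higher. Of 41 snRNA genes tested, 27 were higher and 3 lower in ESCs, and 26 and 9 in EpiLCs. Of 66 miRNA genes tested, 60 were higher and 2 lower in ESCs, and 59 and 2 in EpiLCs. Of all genes tested, 26.8% were higher and 23.7% lower in ESCs, and 23.3% and 24.2% in EpiLCs. The 3 CPM filter could admit genes through their 4sU libraries alone. The fitted ESC medians of the snRNA and miRNA genes tested were 2.74 and 3.25. Over all 161 and 394 of them with at least 10 reads, the ESC medians without a model were 1.40 and 1.08.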

How the data were processed

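Strand-specific, single-end 50-base libraries of 4sU and total RNA were prepared and counted by the authors. Per the file headers and the submitters' processing notes, the deposited values are raw counts per gene from featureCounts 1.5.3 (strand setting 2) on the GENCODE M14 basic annotation without ribosomal RNA, after cutadapt 1.14 and STAR 2.5.3a with mm10, uniquely aligned reads only. Counts were not normalised. The 92 spike-in entries held no reads and were left out.

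Symbols, positions, hosts and transcript sequences came from GENCODE M21, which matched 51274 of 51467 gene IDs, and the 106 spans equalled the deposited ones. A host was the shortest protein-coding gene holding the snoRNA on its strand, or else the longest such gene. CPM used the total gene counts of each library. Precision was limited by depth, since 3 reads are 0.557 to 0.968 CPM in a 4sU library and 0.137 to 0.323 CPM in a total library, which covers counting error only. Differences were fitted by limma-voom (limma 3.58.1, edgeR 4.0.16, R 4.3.3) with TMM scaling, 4 group means and genes at 3 CPM in 3 libraries, with Benjamini-Hochberg adjustment over all genes. The procedure was tested on simulated data. Alternatives were other scalings and filters, edgeR quasi-likelihood, DESeq2 1.42.0, replicate blocks and each library left out.

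Genes were named by a rule, the 8 most abundant and the 3 highest and 3 lowest 4sU minus total differences of each class, and up to 5 calls per direction between the cell types. Same-host members, Snord17 and Snord8 were named after their values were seen. The members, lists and tests were chosen with earlier results of these data known. Some items are not reported here.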

Additional observations from a re-analysis of the deposited data

How the results depend on the processing

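The assay counts in ESCs and EpiLCs kept within 1.5 times of their values under most alternatives. The exceptions were edgeR with genes of at least 10 reads (13 lower in ESCs and 19 in EpiLCs), and the single-library fits, which gave 5 to 9 lower in ESCs and 7 to 17 in EpiLCs. The total RNA comparison was the least stable, with 3 members higher by edgeR and by DESeq2, 12 higher and 3 lower on adjusted p alone, and 3 to 32 higher and 0 to 1 lower without single libraries. In 4sU RNA, adjusted p alone gave 3 higher and 3 lower, and single-library fits gave 0 to 1 higher. The interaction gave 0 to 10 higher without single libraries. With both ESC number 3 libraries left out, chosen after seeing the data, total RNA gave 32 higher and 1 lower, 4sU RNA 0 higher and the interaction 12 higher. Of the 14309 genes in that fit, 2554 were higher and 1479 lower in total RNA. In 4sU RNA 1783 were higher, and in the interaction 680. The cause of these shifts was not tested.

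A replicate block by number gave 3 higher in total RNA, and a block by culture gave 19 lower in EpiLCs and 1 higher in the interaction. The labels do not say that a number marks a shared culture. Deviations of equally numbered 4sU and total libraries correlated at 0.021 to 0.437, those of equally numbered cell types at -0.104 to -0.0098, and 9 of 12 libraries correlated best with their own number in the other assay.

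A pseudocount of 2 CPM lowered the class medians to 0.77 and 0.43 for Snora in ESCs and EpiLCs and to 1.08 and 0.79 for Snord. A pseudocount of 0.1 CPM gave 0.85 for Snora and 1.68 for Snord in EpiLCs, and members without a shared 50-base window, chosen after seeing the data, gave 0.54 for Snora in EpiLCs. Without Snora73b the Snora sums were 883, 482, 846 and 593 CPM in ESC 4sU, ESC total, EpiLC 4sU and EpiLC total RNA, and without Snord22 the Snord sum was 1746 CPM in EpiLC 4sU RNA. Snord genes of at most 100 bases gave 1712, 1571 and 1144 CPM in ESC 4sU, EpiLC 4sU and EpiLC total RNA, and longer ones gave 380, 305 and 894 CPM, a split chosen after seeing the data. A restriction to snoRNAs unique in the genome was not run, because no genome sequence was used here.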
